A study of Homo sapiens with 31 samples.

Results

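The copper transport genes described here are SLC31A1, SLC31A2, ATP7A, ATP7B, ATOX1 and CCS, chosen by name as the transporters and chaperones that move copper through the cell and that are known to handle platinum drugs. All 6 were found by symbol among the 19221 genes of the table. mRNA was sequenced from 31 libraries of cell lines that the study uses as models of ovarian cancer. The study's discussion questions the use of C13* because of its origin. It also cites A2780 as an unlikely line of high-grade serous ovarian cancer. C13* is an HR-proficient, cisplatin-resistant line, sequenced with a control shRNA (C13* shCON, n = 7) or with a lentiviral shRNA against CEBPB (C13* shCEBPB, n = 8). A2780 is an untreated parent line (n = 8), and A2780 OlaR (n = 8) is the strain selected from it by culture in increasing olaparib, a PARP inhibitor. Neither the shRNA sequences nor the number of clones behind each group is given in the sources used here, and the study's methods speak of biological replicates while the labels do not say whether libraries came from separate cultures, so that the tests measure the spread between these libraries only.

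Copper enters the cell as Cu(I) through SLC31A1 (CTR1), the high-affinity importer of the plasma membrane. SLC31A2 (CTR2) is its relative on late endosomes and lysosomes. Chaperones then carry the ion, since free copper is toxic. ATOX1 hands it to the P-type ATPases ATP7A and ATP7B, which pump it into the trans-Golgi network for secreted enzymes and, when copper is high, move to vesicles and the cell surface for export. CCS loads it into the superoxide dismutase SOD1. Cisplatin binds the same sulfur-rich sites, and these proteins have long been studied in ovarian cancer for the uptake, sequestration and efflux of platinum.

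Expression was deposited as FPKM (fragments relative to gene length and to the size of the library). Levels set side by side between genes rest on gene lengths that are not given in the sources used here. FPKM hold no read totals and the absolute depth is unknown. Relative depth, read from the steps of 760 low genes, lay between 0.872 and 1.20. CEBPB, the targeted gene, had a lowest, median and highest FPKM of 75.2, 85.4 and 100.7 in C13* shCON and of 30.2, 49.5 and 58.7 in C13* shCEBPB, without overlap. It had 85.6, 99.7 and 111 in A2780 and 97.1, 113 and 126.9 in A2780 OlaR.

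The likeness of the libraries did not follow the cell lines of their labels. The group means of log2(FPKM + 1) over all genes correlated at r = 0.996 between C13* shCON and A2780 OlaR, at r = 0.890 between C13* shCEBPB and C13* shCON and at r = 0.856 between A2780 OlaR and A2780. No gene was at 10 FPKM or more in every library of one of C13* shCON and A2780 OlaR and at 0.1 or less in every library of the other, against 111 such genes between C13* shCEBPB and C13* shCON and 154 between A2780 OlaR and A2780. The summed FPKM of 4 squamous markers (KRT5, KRT14, TP63, KRT6A) was 1532 to 1805 in C13* shCON and 1735 to 2107 in A2780 OlaR, and at most 0.316 in C13* shCEBPB and 0.191 in A2780. The summed FPKM of 3 leukocyte markers (PTPRC, CD3E, CD68) was 62.5 to 69.97 in C13* shCON, 10.5 to 13.1 in C13* shCEBPB, 78.4 to 104.2 in A2780 and 37.5 to 45.3 in A2780 OlaR. CD3E was at 0 in every library, and nearly all of the sum was PTPRC in A2780 (mean 85.9) and CD68 elsewhere (mean 65.4 in C13* shCON, 11.7 in C13* shCEBPB and 41.9 in A2780 OlaR). The labels of C13* shCON replicate 1 name A2780 in the cell line field and C13* in the title, and it was kept by its title. Groups are therefore named as the libraries labelled so, and a difference between them cannot be told apart from a difference between cell populations. The same holds for fewer cells with a transcript and less of it per cell.

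On hg38, SLC31A1 lies on chromosome 9 from 113221544 to 113264492 (plus strand, 6 merged exons) and SLC31A2 beside it from 113150976 to 113164140 (plus strand, 6 merged exons). ATP7A lies on chromosome X from 77910690 to 78050395 (plus strand, 24 merged exons). ATP7B lies on chromosome 13 from 51930436 to 52012125 (minus strand, 22 merged exons). ATOX1 lies on chromosome 5 from 151742316 to 151772532 (minus strand, 6 merged exons), and CCS on chromosome 11 from 66593153 to 66606019 (plus strand, 7 merged exons). Whether reads were counted by strand is not given in the sources used here. This bears most on SLC31A2, of whose 2473 exonic bases 1582 are shared with FKBP15 on the opposite strand. ATP7A shares 689 of 28126 exonic bases with PGAM4, 382 with C4orf46P2 and 97 with PGK1, and ATOX1 shares 130 of 5239 with G3BP1. SLC31A1, ATP7B and CCS shared none.

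RefSeq promoter windows (GRCh38.p14, 250 bases before to 50 after a start) were found for 5 of the 6 genes, that is for all but SLC31A2. The C/EBP core TTGCNNAA, a pattern that C/EBP factors are known to bind, was in none of them on either strand, and 10.5% of 34943 windows of all genes held it. Other forms of the site and sequence outside these windows were not searched. The GC box GGGCGG, bound by SP1, was in 44.9% of all windows and occurred 3 times in that of SLC31A1, 3 times in each of 2 overlapping windows of ATP7B and 2 times in that of ATOX1, with none in the windows of ATP7A and CCS or in the remaining window of ATP7B. The runs of SLC31A1, the member with the largest difference in A2780 OlaR against A2780, are shown with the box in capitals, and the last pair overlap:
SLC31A1, chr9:113221472-113221493, plus strand: ccgcagcgGGGCGGagcttcac
SLC31A1, chr9:113221519-113221540, plus strand: atgctaggGGGCGGgagggggc
SLC31A1, chr9:113221529-113221550, plus strand: gcgggaggGGGCGGgaaatcct

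The pattern TGCNCNC was searched for as the metal response element core of MTF1. It allows any base at each N and is looser than the sites that MTF1 is known to bind. It was in 55.9% of all windows and in those of all 5 genes. The chaperone genes ATOX1 and CCS held it in the same letters on both strands at overlapping positions, and these runs are shown with the core in capitals, on the strand of the gene:
ATOX1, chr5:151758636-151758658, minus strand: gcctctagTGCGCACtctcggaa
CCS, chr11:66593132-66593154, plus strand: gccttgcgTGCGCACgcactagg

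A match of letters does not show that a factor binds there, and the lack of a match does not show that none binds.

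ATOX1 had the highest mean FPKM of the members in 3 of the 4 groups, and SLC31A1 in A2780. Over the 4 groups, mean FPKM was 51.2 to 70.1 for ATOX1 and 20.3 to 35.1 for CCS, against 2.04 to 3.54 for ATP7A and 0.558 to 3.57 for ATP7B. SLC31A1 spanned the widest range among the members' group means in FPKM, from 10.6 to 56.3, and SLC31A2 ran from 2.95 to 8.43.

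**Figure D1:**
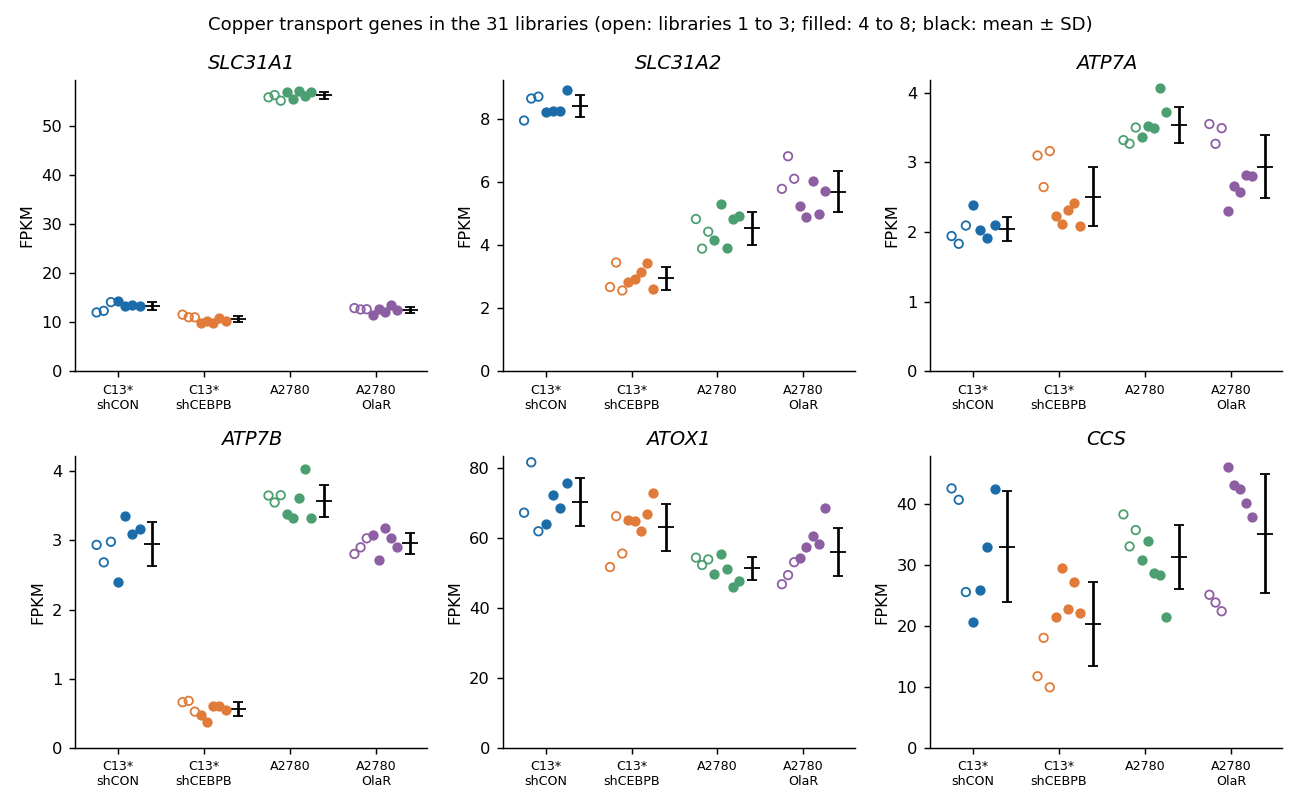
FPKM (linear axes from 0) of the 6 copper transport genes in each of the 31 libraries, by group. Open points are libraries 1 to 3 of a group, filled points libraries 4 to 8, and the black bar is the mean ± SD. SLC31A1 stands at 55.2 to 57.1 in A2780 and under 14.3 elsewhere, ATP7B is under 0.679 in every C13* shCEBPB library, and CCS splits between open and filled points in A2780 OlaR.

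Both comparisons that the study made were tested with limma on log2(FPKM + 1), with Benjamini-Hochberg adjustment over all genes tested, and a gene with an adjusted p under 0.05 was called. Fold changes on this scale understate the change of low genes. All 6 members passed the filter of 1 FPKM in at least 7 libraries for C13* shCEBPB against C13* shCON, ATP7B only through C13* shCON. In that comparison 5 of the 6 were called, 1 higher and 4 lower in C13* shCEBPB, and 84.7% of the 12006 genes tested were called, 38.9% higher and 45.7% lower. In A2780 OlaR against A2780, 4 of the 6 were called, 1 higher and 3 lower, and 89.8% of 12458 genes were called, 40.1% higher and 49.7% lower. Values of the groups stood apart without overlap for 3 and 2 members respectively, against 66.0% and 74.1% of the genes tested. With 6 members nothing is read from these counts, and the members are described by the size of their differences.

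The importer SLC31A1 had the largest difference of the 6 in A2780 OlaR against A2780. Its lowest, median and highest FPKM were 55.2, 56.3 and 57.1 in A2780, where it varied by 1.26% (CV), and 11.5, 12.6 and 13.5 in A2780 OlaR. Every A2780 library was far above every A2780 OlaR library. A2780 averaged 56.3 ± 0.707 (SD, n = 8) and A2780 OlaR 12.6 ± 0.594 (SD, n = 8), so that A2780 was 4.47-fold higher. The log2 fold change was -2.08 (SE 0.03, limma adjusted p = 5.59e-22), larger in size than those of 87.6% of the genes tested, and the exact permutation p was 0.000155 (two-sided, the smallest that 12870 splits allow). It was -2.05 in libraries 1 to 3 and -2.10 in libraries 4 to 8.

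SLC31A1 also fell in C13* shCEBPB against C13* shCON. C13* shCON ran from 12.0 over a median of 13.4 to 14.3 FPKM, and C13* shCEBPB from 9.90 over 10.6 to 11.6. The groups did not overlap, with a gap that was small beside the spread within them. The C13* shCEBPB mean of 10.6 ± 0.610 (SD, n = 8) was 79.8% of the C13* shCON mean of 13.3 ± 0.846 (SD, n = 7). This was a log2 fold change of -0.30 (SE 0.05, limma adjusted p = 1.44e-05), smaller in size than most, at the 28.9th percentile. It was -0.18 in libraries 1 to 3 and -0.17 after a correction for GC content and gene length, and was called in both.

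Over the 4 groups, the order of SLC31A1 was A2780, C13* shCON, A2780 OlaR and C13* shCEBPB. C13* shCON and A2780 OlaR did not differ beyond their spread, with a log2 difference of 0.07 (95% interval -0.02 to 0.16, limma adjusted p = 0.191). C13* shCEBPB was below A2780 OlaR by a log2 fold change of -0.23 (limma adjusted p = 9.44e-05). Against A2780, the log2 fold change was -2.01 in C13* shCON and -2.31 in C13* shCEBPB.

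SLC31A2, the endosomal relative of the importer, fell in C13* shCEBPB and rose in A2780 OlaR. Its lowest, median and highest FPKM were 7.96, 8.25 and 8.93 in C13* shCON and 2.57, 2.87 and 3.45 in C13* shCEBPB. No library of one group came near the other group. The C13* shCEBPB mean of 2.95 ± 0.356 (SD, n = 8) lay below that of C13* shCON, 8.43 ± 0.345 (SD, n = 7), which was 2.85-fold higher. limma gave a log2 fold change of -1.26 (SE 0.06, limma adjusted p = 2.49e-13, exact permutation p = 0.000155, the smallest that 6435 splits allow).

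In A2780 the lowest, median and highest FPKM of SLC31A2 were 3.89, 4.63 and 5.32, and in A2780 OlaR they were 4.90, 5.75 and 6.82. The groups overlapped. The mean of 5.71 ± 0.640 (SD, n = 8) in A2780 OlaR was 1.26 times the mean of 4.54 ± 0.520 (SD, n = 8) in A2780, a log2 fold change of 0.27 (SE 0.07, limma adjusted p = 6.40e-04). It was 0.43 in libraries 1 to 3 and 0.18 in libraries 4 to 8, and called in both. FKBP15, which overlaps SLC31A2 on the other strand, had log2 fold changes of 0.61 in A2780 OlaR against A2780 and 0.20 in C13* shCEBPB against C13* shCON, the same direction as SLC31A2 in the first and the opposite in the second. Its part in the values of SLC31A2 was not tested.

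The order of SLC31A2 was C13* shCON, A2780 OlaR, A2780 and C13* shCEBPB. As deposited, each group was called different from the next in this order, although A2780 OlaR and A2780 overlapped. It was the member that most separated the closely alike libraries labelled C13* shCON and A2780 OlaR, with a log2 difference of 0.50 (SE 0.06, limma adjusted p = 1.74e-06) and no overlap, a size above that of 95.7% of the genes tested. C13* shCEBPB was below A2780 by -0.49 on the log2 scale (limma adjusted p = 9.29e-07), and by -0.10 after quantile normalization, where it was not called.

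The exporter ATP7B, the copper ATPase of the liver, fell furthest of the 6 in C13* shCEBPB. The lowest, median and highest FPKM were 2.40, 2.98 and 3.36 in C13* shCON and 0.369, 0.574 and 0.679 in C13* shCEBPB. Every C13* shCEBPB library was below 1 FPKM and every C13* shCON library above 2.39. The mean of 0.558 ± 0.102 (SD, n = 8) was 18.9% of the C13* shCON mean of 2.95 ± 0.319 (SD, n = 7). Its log2 fold change was -1.34 (SE 0.06, limma adjusted p = 1.31e-13) at a pseudocount of 1 and -2.22 at a pseudocount of 0.1. Since ATP7B passed the filter through C13* shCON alone, the value with no filter on low FPKM is given too (limma adjusted p = 1.23e-12).

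In A2780 OlaR, ATP7B was a little below A2780. A2780 ran from 3.33 over a median of 3.58 to 4.04 FPKM, and A2780 OlaR from 2.71 over 2.97 to 3.18. The groups did not overlap, although the gap was small. The A2780 OlaR mean of 2.96 ± 0.154 (SD, n = 8) was 82.9% of the A2780 mean of 3.57 ± 0.234 (SD, n = 8), with a log2 fold change of -0.21 (SE 0.04, limma adjusted p = 5.66e-05). All genes tested in this comparison had a median log2 fold change of -0.12 as deposited and 0.01 when each library was divided by its median ratio to the geometric mean library. On that second scale ATP7B changed by -0.10 (limma adjusted p = 0.0201), and after quantile normalization by -0.01 (limma adjusted p = 0.836).

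C13* shCON and A2780 OlaR had nearly the same mean of ATP7B, with a log2 difference of -0.01 (95% interval -0.12 to 0.10, limma adjusted p = 0.922). As deposited, the order was thus A2780, then these groups together, then C13* shCEBPB. C13* shCON was below A2780 by -0.21 on the log2 scale (limma adjusted p = 6.22e-04), with overlap. Over the other settings this difference ran from -0.28 to -0.02. C13* shCEBPB was below A2780 OlaR by -1.35 and below A2780 by -1.55 on the log2 scale (limma adjusted p = 1.09e-15 and 7.96e-17). In both comparisons of C13* shCEBPB, ATP7B passed the filter only through the group where it was higher, and with no filter the limma adjusted p was 6.34e-15 and 1.00e-15.

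ATP7A, the more widely expressed copper ATPase and the gene of Menkes disease, moved the other way in C13* shCEBPB. The lowest, median and highest FPKM were 1.83, 2.04 and 2.38 in C13* shCON and 2.09, 2.36 and 3.16 in C13* shCEBPB. The groups overlapped, and the 3 highest libraries of C13* shCEBPB were numbers 1 to 3, at 2.65 to 3.16. C13* shCEBPB averaged 2.51 ± 0.423 (SD, n = 8) and C13* shCON 2.04 ± 0.179 (SD, n = 7), with a log2 fold change of 0.20 (SE 0.07, limma adjusted p = 0.0128). It was 0.42 in libraries 1 to 3 (limma adjusted p = 6.60e-04) and 0.06 in libraries 4 to 8 (limma adjusted p = 0.398). Quantile normalization gave 0.47 and the GC and length correction 0.37, both called.

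In A2780 OlaR against A2780 the call of ATP7A depended on the processing. A2780 ran from 3.27 over a median of 3.50 to 4.08 FPKM, and A2780 OlaR from 2.30 over 2.81 to 3.55. The A2780 OlaR libraries 1 to 3 were at 3.27 to 3.55, within the range of A2780, and libraries 4 to 8 at 2.30 to 2.82, below it. The log2 fold change was -0.21 (SE 0.06, limma adjusted p = 0.00404) over all libraries, 0.02 in libraries 1 to 3 (limma adjusted p = 0.693) and -0.35 in libraries 4 to 8 (limma adjusted p = 2.93e-05). It was -0.11 on the median ratio scale (limma adjusted p = 0.109), -0.02 after quantile normalization (limma adjusted p = 0.76) and 0.09, called in the opposite direction, after the GC and length correction (limma adjusted p = 0.00961).

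The order of ATP7A was A2780, A2780 OlaR, C13* shCEBPB and C13* shCON, and the middle groups did not differ beyond their spread (log2 difference -0.17, 95% interval -0.33 to 0.00, limma adjusted p = 0.0617). That difference was called without A2780 OlaR replicate 4 (-0.20, limma adjusted p = 0.0253) or replicate 6 (-0.18, 0.0496), or without C13* shCEBPB replicate 1 (-0.20, 0.0266) or replicate 3 (-0.20, 0.0217). C13* shCON was below A2780 OlaR by -0.36 on the log2 scale (limma adjusted p = 3.43e-04) and below A2780 by -0.58 (limma adjusted p = 3.48e-10). C13* shCEBPB was below A2780 by -0.38 (limma adjusted p = 2.29e-05), but above it by 0.05 after quantile normalization and by 0.08 after the GC and length correction.

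With ATP7B lower and ATP7A not, the make-up of the exporter transcripts differed in C13* shCEBPB. ATP7A was 81.7% ± 2.64 (SD, n = 8) of the summed FPKM of both ATPases there, with 79.2% in the lowest library. C13* shCON was at 41.1% ± 4.07 (SD, n = 7), A2780 at 49.7% ± 1.73 (SD, n = 8) and A2780 OlaR at 49.6% ± 4.44 (SD, n = 8), and no library of these groups was above 55.9%. The summed exporter FPKM was 3.07 ± 0.480 in C13* shCEBPB, 4.99 ± 0.297 in C13* shCON, 5.89 ± 0.425 in A2780 OlaR and 7.10 ± 0.432 in A2780 (SD).

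The log2 ratio of the importer SLC31A1 to the summed exporters was 2.79 to 3.07 in A2780 and 0.957 to 1.24 in A2780 OlaR. It was 1.30 to 1.58 in C13* shCON and 1.58 to 2.04 in C13* shCEBPB. By deposited FPKM, SLC31A1 thus exceeded the summed ATPases in every library, most in A2780. The size of this ratio depends on the gene lengths behind the FPKM, which are not given in the sources used here. Merged exonic bases and longest transcript were 28126 and 8569 for ATP7A, and 18854 and 7022 for ATP7B. They were 5145 and 4762 for SLC31A1, so which transcripts outweighed the others is not settled. These ratios describe transcripts and were not tested, since they combine members.

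**Figure D2:**
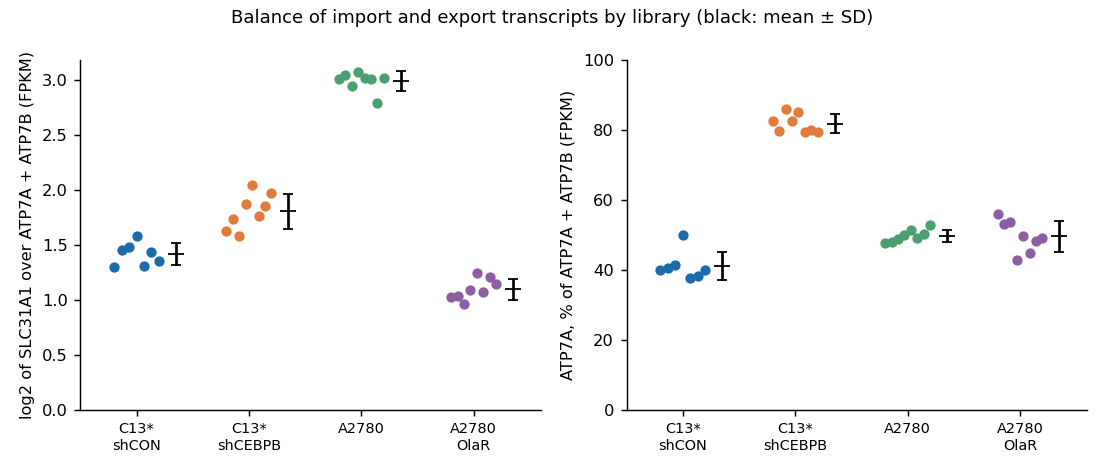
Left, log2 of SLC31A1 FPKM over the summed FPKM of ATP7A and ATP7B. Right, ATP7A as a percent of the summed FPKM of ATP7A and ATP7B. Points are libraries and black bars the mean ± SD. A2780 stands highest on the left with a mean of 2.99, and C13* shCEBPB highest on the right with a mean of 81.7%.

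ATOX1, the chaperone that serves both ATPases, was not called in either comparison that the study made. The lowest, median and highest FPKM were 61.8, 68.5 and 81.5 in C13* shCON and 51.6, 64.8 and 72.9 in C13* shCEBPB. The groups overlapped widely. Its log2 fold change was -0.15 (95% interval -0.30 to 0.00, limma adjusted p = 0.0589), and it was called without C13* shCON replicate 3 (-0.18, limma adjusted p = 0.0321), without C13* shCON replicate 4 (-0.17, 0.0432) or without C13* shCEBPB replicate 8 (-0.18, 0.0244). It was also called after quantile normalization (-0.28, limma adjusted p = 4.82e-04), with a common sum of FPKM (-0.14, 0.0422) and in 1 fit of all 4 groups (-0.15, 0.047), and not on the median ratio scale (-0.09, 0.257) or after the GC and length correction (-0.07, 0.468).

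In A2780 the lowest, median and highest FPKM of ATOX1 were 46.0, 51.6 and 55.3, and in A2780 OlaR they were 46.7, 55.8 and 68.5. The range of A2780 OlaR covered nearly all of A2780. Over all libraries the log2 fold change was 0.12 (95% interval -0.02 to 0.25, limma adjusted p = 0.0871), with -0.11 in libraries 1 to 3 (limma adjusted p = 0.0519) and 0.25 in libraries 4 to 8 (limma adjusted p = 0.00122). It was called without A2780 OlaR replicate 1 (0.15, limma adjusted p = 0.0209) or replicate 2 (0.14, 0.0427), on the median ratio scale (0.26, 0.00117) and after the GC and length correction (0.18, 0.0379).

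Across groups, ATOX1 was highest in C13* shCON, followed by C13* shCEBPB, A2780 OlaR and A2780. C13* shCON was above A2780 by 0.44 (limma adjusted p = 3.09e-07) and above A2780 OlaR by 0.32 (limma adjusted p = 0.00203) on the log2 scale. C13* shCEBPB was above A2780 by 0.29 (limma adjusted p = 2.50e-04), and by 0.10 in libraries 1 to 3, where it was not called (limma adjusted p = 0.272). Its difference from A2780 OlaR, 0.17 (limma adjusted p = 0.0493), lay at the threshold and lost its call when any 1 of 12 of the 16 libraries was left out (limma adjusted p 0.053 to 0.106).

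CCS, which feeds copper to SOD1, varied most within groups, with a CV of 27.6% in C13* shCON, 33.7% in C13* shCEBPB, 16.7% in A2780 and 27.7% in A2780 OlaR. The lowest, median and highest FPKM were 20.6, 32.9 and 42.5 in C13* shCON and 9.89, 21.7 and 29.4 in C13* shCEBPB. The groups overlapped, and the C13* shCEBPB libraries 1 to 3 were at 9.89 to 18.0 and libraries 4 to 8 at 21.5 to 29.4. The mean was 20.3 ± 6.84 (SD, n = 8) against 32.9 ± 9.10 (SD, n = 7), a log2 fold change of -0.70 (SE 0.22, limma adjusted p = 0.00641). It was -1.40 in libraries 1 to 3 (limma adjusted p = 3.40e-04), -0.26 in libraries 4 to 8 (limma adjusted p = 0.144) and -0.77 after the GC and length correction (limma adjusted p = 2.55e-05).

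In A2780 OlaR against A2780 the direction of CCS turned with the libraries used. A2780 OlaR libraries 1 to 3 were at 22.4 to 25.1 FPKM and libraries 4 to 8 at 37.8 to 46.0, with none between, while A2780 libraries 1 to 3 were at 33.0 to 38.2 and libraries 4 to 8 at 21.4 to 33.8. The log2 fold change was 0.13 over all libraries (95% interval -0.19 to 0.45, limma adjusted p = 0.426). It was -0.57 in libraries 1 to 3 (limma adjusted p = 7.84e-06) and 0.55 in libraries 4 to 8 (limma adjusted p = 5.75e-05). With the GC and length correction it was 0.16 (limma adjusted p = 0.0944).

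Over all libraries, the means of CCS in A2780 OlaR (35.1), C13* shCON (32.9) and A2780 (31.2) did not differ beyond their spread. Between C13* shCON and A2780 OlaR the direction turned with the libraries used. The means were 36.2 and 23.7 in libraries 1 to 3, and 30.5 and 41.9 in libraries 4 to 8. Over the other settings this log2 difference ran from -0.49 to 0.56. C13* shCEBPB was below A2780 by -0.66 (limma adjusted p = 0.00272) and below A2780 OlaR by -0.79 (limma adjusted p = 0.00231) on the log2 scale. The difference from A2780 was -1.41 in libraries 1 to 3 (limma adjusted p = 4.63e-05) and -0.21, not called, in libraries 4 to 8 (limma adjusted p = 0.0845).

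The spread of CCS within groups moved with base composition. For each library, a GC tilt was taken as the median deviation from the group mean of log2(FPKM + 1) in the 2487 genes of highest GC content less that in the 2487 of lowest, of 12434 genes. The tilt ran from -0.514 to 0.311, and was -0.321 to -0.302 in A2780 OlaR libraries 1 to 3 and above 0 in libraries 4 to 8. The longest transcript of CCS holds 60.9% GC, above 87.2% of genes, and that of ATP7A 38.9%, above 12.9% of genes. Over the 31 libraries, the deviation of CCS from its group mean correlated with the tilt at r = 0.946, and that of ATP7A at r = -0.906. The r was 0.682 for ATOX1, -0.605 for SLC31A1, -0.10 for SLC31A2 and -0.03 for ATP7B. Libraries 1 to 3 and 4 to 8 are ranges of the number in the library codes, and the labels do not call them batches. The members are among the genes of the table, and the points share a library with the tilt. The part of the tilt in the group differences of CCS and ATP7A was not tested beyond the corrected values above.

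Within groups, CCS and ATP7A deviated in opposite directions (r = -0.846 over 31 libraries), ATOX1 and CCS together (r = 0.699) and ATP7A and ATOX1 oppositely (r = -0.675), while ATP7B and CCS were near 0 (r = 0.01). All pairs share their libraries and the tilt, and no test was made of them.

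**Figure D3:**
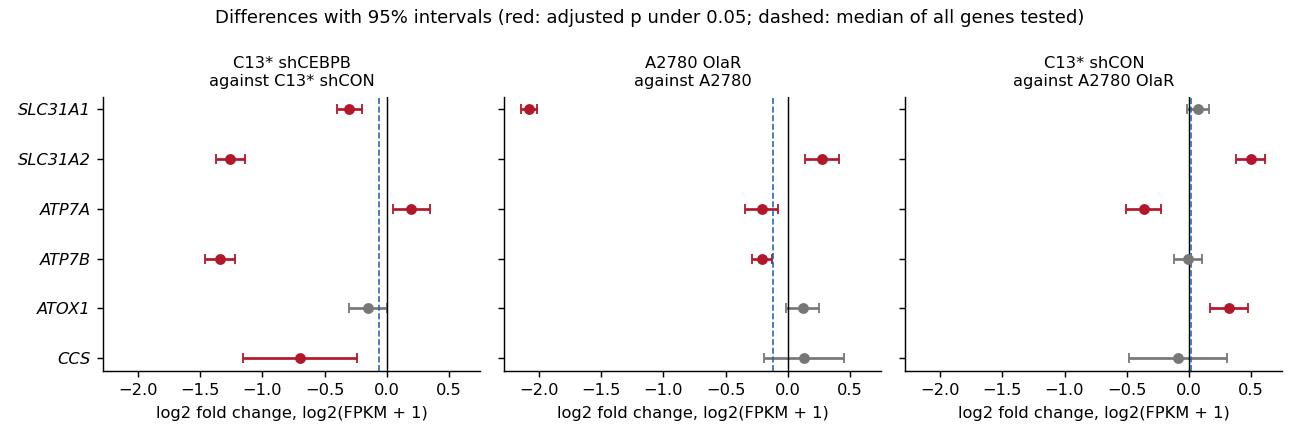
Log2 fold changes on log2(FPKM + 1) (horizontal) of the 6 genes with 95% intervals in 3 comparisons. Red points have an adjusted p under 0.05, grey points do not, and the dashed line is the median of all genes tested. SLC31A1 stands at -2.08 in A2780 OlaR against A2780, while SLC31A2 (-1.26) and ATP7B (-1.34) are farthest from 0 in C13* shCEBPB against C13* shCON.

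The comparisons across cell line labels share groups with the others and are no independent evidence. Some of their values, not all, are given beside each gene above. In C13* shCON against A2780, 5 of the 6 were called, against 91.4% of all genes tested, and in C13* shCEBPB against A2780, all 6, against 88.9%. In C13* shCEBPB against A2780 OlaR, 5 of the 6 were called, against 83.7%. In C13* shCON against A2780 OlaR, 3 of the 6 were called (SLC31A2, ATP7A and ATOX1), against 42.2%. Without C13* shCON replicate 1, the calls of all 6 members were the same in its 3 comparisons. The log2 fold changes in C13* shCEBPB against C13* shCON were then -0.32 for SLC31A1, -1.27 for SLC31A2, 0.19 for ATP7A, -1.34 for ATP7B, -0.16 for ATOX1 and -0.63 for CCS.

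The next genes along the route of copper come from 4 lists. The mitochondrial copper delivery list holds proteins that bring copper to cytochrome c oxidase. Of its 9 genes, 8 were tested. In C13* shCEBPB against C13* shCON, 5 were called higher, none lower and 3 were not called, beside 38.9% higher and 45.7% lower of all genes tested. The counts were 4 higher and 1 lower after quantile normalization. On the median ratio scale and after the GC and length correction they were 7 higher and none lower. The median log2 fold change was 0.16 against -0.07 for all genes tested. In A2780 OlaR against A2780, 2 were called higher and 5 lower, beside 40.1% and 49.7% of all genes tested, with a median of -0.39 against -0.12. With lists this small, nothing is read from the counts called. The largest rise in C13* shCEBPB was that of CMC1, a cytochrome c oxidase assembly factor, at a mean of 20.7 ± 1.77 FPKM in C13* shCON and 38.0 ± 4.12 in C13* shCEBPB (here and below ± SD over the libraries of a group), with a log2 fold change of 0.84 (limma adjusted p = 3.45e-09). In A2780 OlaR, COA6, which helps to load copper into COX2, rose from 28.7 ± 1.66 to 51.2 ± 4.51 FPKM (log2 fold change 0.81, limma adjusted p = 9.25e-12), and COX19, of the intermembrane space, fell from 8.55 ± 0.515 to 3.92 ± 0.223 (log2 fold change -0.96, limma adjusted p = 1.91e-14).

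Among the copper enzymes, 9 of 16 were tested in each comparison. In C13* shCEBPB 2 were called higher and 5 lower, and in A2780 OlaR 4 higher and 5 lower, beside the shares of all genes given above (38.9% higher and 45.7% lower, and 40.1% higher and 49.7% lower). After quantile normalization the counts were 4 higher and 3 lower in both comparisons. PAM, which amidates peptide hormones with copper from the ATPases, rose from 19.4 ± 1.001 to 58.9 ± 5.33 FPKM in C13* shCEBPB (log2 fold change 1.55, limma adjusted p = 9.91e-15). LOXL2, a lysyl oxidase that crosslinks collagen, fell from 69.3 ± 1.64 to 45.6 ± 5.41 FPKM (log2 fold change -0.60, limma adjusted p = 7.60e-08). In A2780 OlaR, the related LOXL4 rose from 0.0332 ± 0.00716 to 2.51 ± 0.347 FPKM (log2 fold change 1.76, limma adjusted p = 6.10e-17) and CP, the ferroxidase ceruloplasmin, fell from 5.04 ± 0.471 to 0.175 ± 0.0784 (log2 fold change -2.36, limma adjusted p = 4.05e-19). LOXL4 passed the filter of 1 FPKM only through A2780 OlaR, and CP only through A2780. Each was high in that group, so the p-values of LOXL4 and CP add no support. SOD1, the enzyme served by CCS, had a log2 fold change of -0.05 in C13* shCEBPB (limma adjusted p = 0.261) and rose by 0.39 in A2780 OlaR (limma adjusted p = 1.56e-08), and was named outside the rule for its tie to CCS.

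The copper reduction and regulation list holds metal reductases, regulators of ATPase traffic and metal-sensing factors. Of 15 genes tested, 8 were called higher and 6 lower in C13* shCEBPB, and of 14 tested, 5 higher and 9 lower in A2780 OlaR. Of all genes tested, 84.7% and 89.8% were called in these comparisons, so the counts are not read as a result about the list. GLRX, a glutaredoxin that acts on the copper ATPases, rose from 3.98 ± 0.467 to 19.9 ± 1.19 FPKM in C13* shCEBPB (log2 fold change 2.07, limma adjusted p = 2.79e-16), and CYBRD1, a metal reductase of the membrane, fell from 11.6 ± 0.855 to 4.45 ± 0.698 (log2 fold change -1.22, limma adjusted p = 3.16e-11). In A2780 OlaR, STEAP3, which reduces Fe(III) and Cu(II), rose from 4.42 ± 0.348 to 12.0 ± 0.737 FPKM (log2 fold change 1.26, limma adjusted p = 1.72e-15), and XIAP, a copper-binding ubiquitin ligase that targets COMMD1 and CCS, fell from 23.9 ± 1.11 to 5.78 ± 0.734 (log2 fold change -1.89, limma adjusted p = 8.76e-17).

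Of other routes that platinum is known to take, 7 of 9 genes were tested. In C13* shCEBPB 3 were called higher and 4 lower, and in A2780 OlaR 4 higher and 3 lower, where 84.7% and 89.8% of all genes tested were called. The organic cation transporter SLC22A3 rose from 2.75 ± 0.275 to 10.7 ± 2.27 FPKM in C13* shCEBPB (log2 fold change 1.62, limma adjusted p = 7.13e-11), and SLC47A2, an efflux transporter for cations, fell from 11.3 ± 0.992 to 0.0695 ± 0.0715 (log2 fold change -3.52, limma adjusted p = 6.29e-20). In A2780 OlaR, the efflux pump ABCC2 (MRP2) rose from 0.952 ± 0.171 to 19.97 ± 2.44 FPKM (log2 fold change 3.42, limma adjusted p = 1e-19) and TMEM205, linked to platinum resistance, fell from 118 ± 11.0 to 40.7 ± 5.61 (log2 fold change -1.52, limma adjusted p = 2.29e-13). SLC47A2 passed the filter of 1 FPKM only through C13* shCON, and ABCC2 only through A2780 OlaR. Each was high in that group, so the p-values of SLC47A2 and ABCC2 add no support. Under 3 other scalings and the GC and length correction, where a gene could be tested, a called gene of the 4 lists turned direction only after quantile normalization, AOC3 to 0.16 in C13* shCEBPB and MTF1 to 0.01 in A2780 OlaR.

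**Figure D4:**
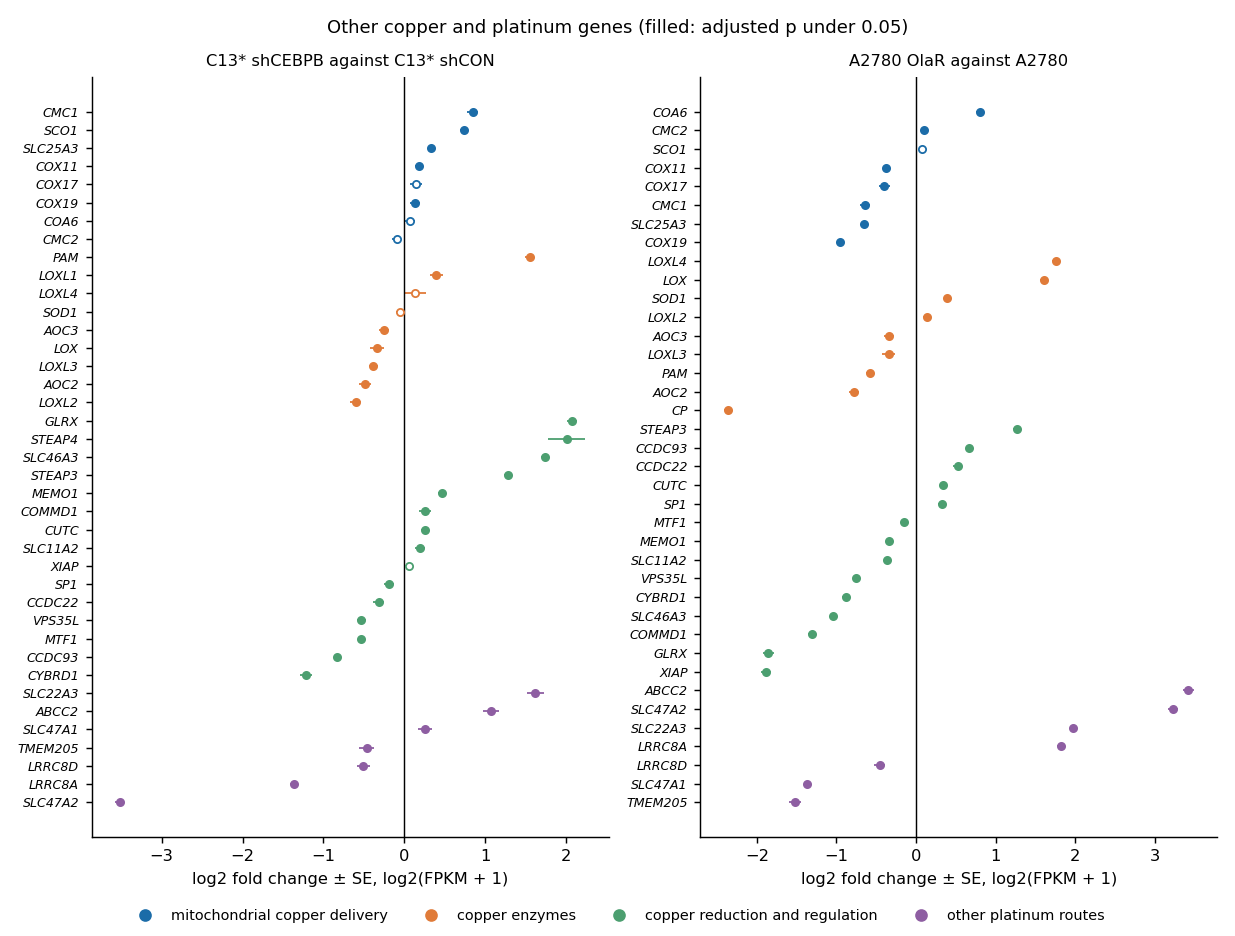
Log2 fold changes ± SE on log2(FPKM + 1) (horizontal) of the tested genes of 4 lists of copper and platinum genes, in the colours of the lists. Filled points have an adjusted p under 0.05. Mitochondrial copper delivery genes lie mostly above 0 on the left (5 called higher, none lower) and below it on the right (2 higher, 5 lower), and ABCC2 stands at 3.42 on the right. Of all genes tested, 38.9% were called higher and 45.7% lower on the left, and 40.1% and 49.7% on the right.

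The genes most like each member were those with the highest Pearson r of log2(FPKM + 1) over the 31 libraries, among 12966 genes. For SLC31A1 they were PTPDC1, COL5A2 and LRRK2 (each r = 0.997), all highest in A2780. For SLC31A2 they were PPP4R4 (r = 0.967), LIPG (r = 0.956) and NEFL (r = 0.953), which were highest in C13* shCON, as SLC31A2 was. For ATP7A, API5 (r = 0.930) and HSPA5 (r = 0.916) were among them.

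For ATP7B the most alike genes were HEBP2, CXCL16 and CTSC (each r = 0.991), all lowest in C13* shCEBPB, where HEBP2 had a mean of 3.13 FPKM against 32.4 in C13* shCON. For ATOX1 they were HMOX2 (r = 0.863), NEIL2 (r = 0.847) and TMSB10 (r = 0.835), and for CCS, PRDX5 (r = 0.961) and SF3A2 (r = 0.960) were among them. Group means were not removed, so a high r describes differences between groups and deviations within them together. Within groups, CCS (r = 0.946), ATP7A (r = -0.906) and ATOX1 (r = 0.682) moved with the GC tilt. The part of the tilt in their likeness to other genes was not tested.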

How the data were processed

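RNA of the 31 libraries was sequenced as paired-end reads, which the study's methods describe as mapped to hg38 with TopHat and counted with HTSeq. The authors deposited expression as FPKM, in 1 table. The tool, annotation and strand setting behind the FPKM are not given in the sources used here, and the counts were not used here. FPKM carry no read totals, so no counting error is given.

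Groups came from the sample titles. Of 19225 entries, 4 with repeated symbols were left out. Positions came from GENCODE on hg38 and promoters from RefSeq. Differences were fitted on log2(FPKM + 1) in limma 3.58.1 under R 4.3.3, by lmFit and trended eBayes, two-sided, on the 2 groups compared. A gene was tested if it reached an FPKM of 1 in a number of libraries equal to the size of the smaller group, and called at a Benjamini-Hochberg adjusted p under 0.05 over all genes tested. Members also had an exact permutation test. The other steps ran in Python 3.11.15 with scipy 1.17.1, numpy 2.4.6, matplotlib 3.10.9 and pandas 2.3.3. The fit was tested on simulated data with independent normal noise, the spread of C13* shCON in both groups and no GC tilt. In these data 200 of 12006 genes were shifted. The fit found 79% of the shifts of 0.3 log2 and 100% of those of 1, and 7.73% of its calls were false. In C13* shCEBPB against C13* shCON itself 84.7% of genes were called, so these shares need not hold there.

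The genes named are the members, CEBPB, the gene called with the largest rise and fall of each list in both comparisons of the study, the 3 genes most like each member, overlapping genes and markers. Some genes that this rule names are not reported here. The members and lists were chosen with earlier results of these data known. VPS35L was matched through a synonym. Alternatives were 2 other pseudocounts, 2 other filters, 3 scalings, 1 fit of all groups, the replicate block, ranges of library numbers, leaving out each library and 2 stricter calls. A GC content and length correction was added after seeing the data.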

Additional observations from a re-analysis of the deposited data

Results flagged for a closer look

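In 24 sets of libraries (6 genes in 4 groups), the highest or lowest value was compared with the others of its group by Dixon's ratio at the 95% level, which marks about 1 in 20 sets by chance. It marked 1. ATP7B in A2780 replicate 7 was at 4.039 FPKM, where the other A2780 libraries lay between 3.328 and 3.656, a gap of 0.539 of the whole range against a critical value of 0.526. The log2 fold change of ATP7B in A2780 OlaR against A2780 kept its call when any single library was left out, at -0.22 to -0.19.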

How the results depend on the processing

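The FPKM give no read totals, so depth limits the low members (ATP7A, ATP7B, SLC31A2) by an unknown amount. With a filter at 5 FPKM fewer members were tested, and the members called went from 5 to 3 (of 4 tested) in C13* shCEBPB against C13* shCON, from 4 to 2 in A2780 OlaR against A2780, from 5 to 3 in C13* shCON against A2780, from 6 to 3 in C13* shCEBPB against A2780 and from 5 to 3 in C13* shCEBPB against A2780 OlaR. With a log2 fold change of at least 1 also required, the counts in the same order were 2, 1, 1, 2 and 1, and 0 of 3 in C13* shCON against A2780 OlaR. Libraries 4 to 8 gave 3 in C13* shCEBPB against C13* shCON, and quantile normalization gave 2 in A2780 OlaR against A2780, and the cause was not tested. Leaving out each library in turn moved no count of members called past 1.5 times.

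Signs turned as follows (log2 fold change), and the cause was not tested. In A2780 OlaR against A2780, libraries 1 to 3 gave 0.0239 for ATP7A, -0.105 for ATOX1 and -0.565 for CCS, and the GC and length correction, chosen after seeing the data, gave 0.0939 for ATP7A. In C13* shCON against A2780, CCS was -0.0138 with a common sum of FPKM, -0.0286 with the replicate block, -0.00908 in libraries 1 to 3 and -0.0286 to 0.144 when a library was left out. In C13* shCON against A2780 OlaR, ATP7B was 1.65e-05 with a common sum, 0.00221 in libraries 4 to 8, 0.0387 with the GC correction and -0.0322 to 0.0277 when a library was left out, and CCS was 0.556 in libraries 1 to 3 and -0.168 to 0.0150 when a library was left out. ATP7A in C13* shCEBPB was 0.0493 against A2780 and 0.0725 against A2780 OlaR with quantile normalization, and 0.0773 against A2780 with the GC correction.

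For pairing and for the replicate block, libraries were matched by the replicate number of their titles. In C13* shCON, replicates 6 and 7 are libraries 7 and 8 by their codes, and matching by code was not tested. Same-numbered replicates did not deviate together in either comparison of the study, with a mean r of -0.15 in C13* shCEBPB against C13* shCON and -0.23 in A2780 OlaR against A2780. In C13* shCEBPB against A2780 OlaR the mean was 0.496 for the same number, with the lowest pair at 0.0921, and -0.06 for other numbers. Same-numbered libraries thus did deviate together there. The main fits paired no libraries, since the study's methods state no block. With the replicate block, 6 members were called in C13* shCEBPB against C13* shCON, ATOX1 added at -0.18 (limma adjusted p = 0.00935), 4 in A2780 OlaR against A2780, and 6 in C13* shCEBPB against A2780 OlaR, ATP7A added at -0.17 (limma adjusted p = 0.00267).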
